A study of Danio rerio with 12 samples.

Results

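The complement genes of zebrafish liver were followed across 12 bulk RNA-seq libraries. The set was given as 37 gene names, and 33 of these names were found in the gene column of the deposited table, as 34 genes of 34028. The name c6 stands for 2 genes there, called c6.1 and c6.2 after a RefSeq reference table (assembly GRCz12tu, used for names only). The names c2, c4b, cfi and c4bp matched no row by name and were not analysed here as members. All 34 genes passed the filter on low counts. The livers came from fish 3 months old of a line that carries a krasV12 transgene, an activated form of the small GTPase gene kras. The 4 groups had 3 libraries each: TDCIPP together with DOX, DOX alone, TDCIPP alone, and DMSO, the solvent control. TDCIPP, or tris(1,3-dichloro-2-propyl)phosphate, belongs to the organophosphates used as flame retardants; the other agent is labelled DOX and not spelled out. All 4 groups share the transgene, so no comparison with livers lacking it could be made. For its promoter, the doses and the length of treatment, the sources used here give nothing.

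Complement is a cascade of plasma proteins, most of them made by hepatocytes. It is started by antibody and C1q (classical pathway), by sugar-binding lectins (lectin pathway) or by slow spontaneous activation of C3 (alternative pathway). All 3 routes meet at the cleavage of C3, which marks a surface and leads to assembly of the membrane attack complex from C5b, C6, C7, C8 and C9. Many complement genes are acute phase genes, whose transcription in the liver goes up in inflammation. Zebrafish carry several tandem copies of the C3 gene, grouped as c3a and c3b.

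Library totals ran between 28621536 and 40877342 reads. All 15 hepatocyte markers were detected in every library, with a summed level of 107568 to 111167 CPM (read counts scaled to a common depth, here with edgeR's TMM factors) in TDCIPP+DOX, 61506 to 110275 in DOX, 94770 to 102619 in TDCIPP and 90410 to 122264 in DMSO. Some libraries stood apart. DOX replicate 3 had 862 CPM of 10 oocyte markers, against 98.7 CPM or less in every other library. It correlated least with its group (Pearson r of log2 CPM across genes 0.82 and 0.81). This library also had the lowest hepatocyte marker sum (61506 CPM) and the highest TMM factor (1.52). For 9 of the 34 complement genes it was the lowest of the 12 libraries. The share of all genes for which it was lowest was not counted. The 8 intestine markers summed to 1402 CPM in TDCIPP+DOX replicate 3, 377 CPM in DMSO replicate 3 and 119 CPM in TDCIPP replicate 1, against 42.6 CPM or less in the other libraries. Medians over the complement genes and the main fold changes are also given from a fit without these 4 libraries. The 4 were picked by oocyte and intestine markers alone. The 9 exocrine pancreas markers summed to 162 to 1314 CPM in TDCIPP+DOX and 46.3 to 738 CPM in DOX. In TDCIPP they summed to 517 to 998 CPM and in DMSO to 427 to 2221 CPM. TDCIPP+DOX replicate 1, with 1314 CPM of them, stays in that fit, so it is not free of pancreas transcripts. Whether each library was made from its own fish is not stated in the labels, and p-values therefore measure the spread between libraries only. In bulk RNA, fewer cells of a type and less RNA per cell cannot be told apart.

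The 34 complement genes together took 4.69%, 3.24% and 2.62% of all reads in TDCIPP+DOX, 2.08%, 1.63% and 2.22% in DOX, 5.37%, 1.52% and 4.09% in TDCIPP and 1.98%, 1.15% and 1.16% in DMSO. By this share, TDCIPP replicates 1 and 3 and the TDCIPP+DOX libraries were the richest in complement reads, while TDCIPP replicate 2 lay inside the DMSO range. The shares are of library totals and are not scaled by TMM. The TMM factors were 1.39 to 1.46 in TDCIPP+DOX and 0.640 to 0.770 in DMSO, so the shares do not rank these groups on the TMM scale. A single gene, c3a.1, held 26.5% to 55.0% of the complement reads of a library. Compared per length, on the deposited FPKM scale and averaged over the 12 libraries, c3a.1 (2225 FPKM) and c9 (2031 FPKM) led. The complement factor H-like gene cfhl4 (1309 FPKM), factor B, cfb (775 FPKM), and factor H, cfh (453 FPKM), followed. At the other end, c3a.5 averaged 0.85 FPKM, c3a.4 4.03 FPKM and properdin, cfp, 2.53 FPKM. Each gene's range over the 12 libraries overlapped that of its neighbours throughout this order, as the plot of FPKM by gene shows.

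**Figure D1:**
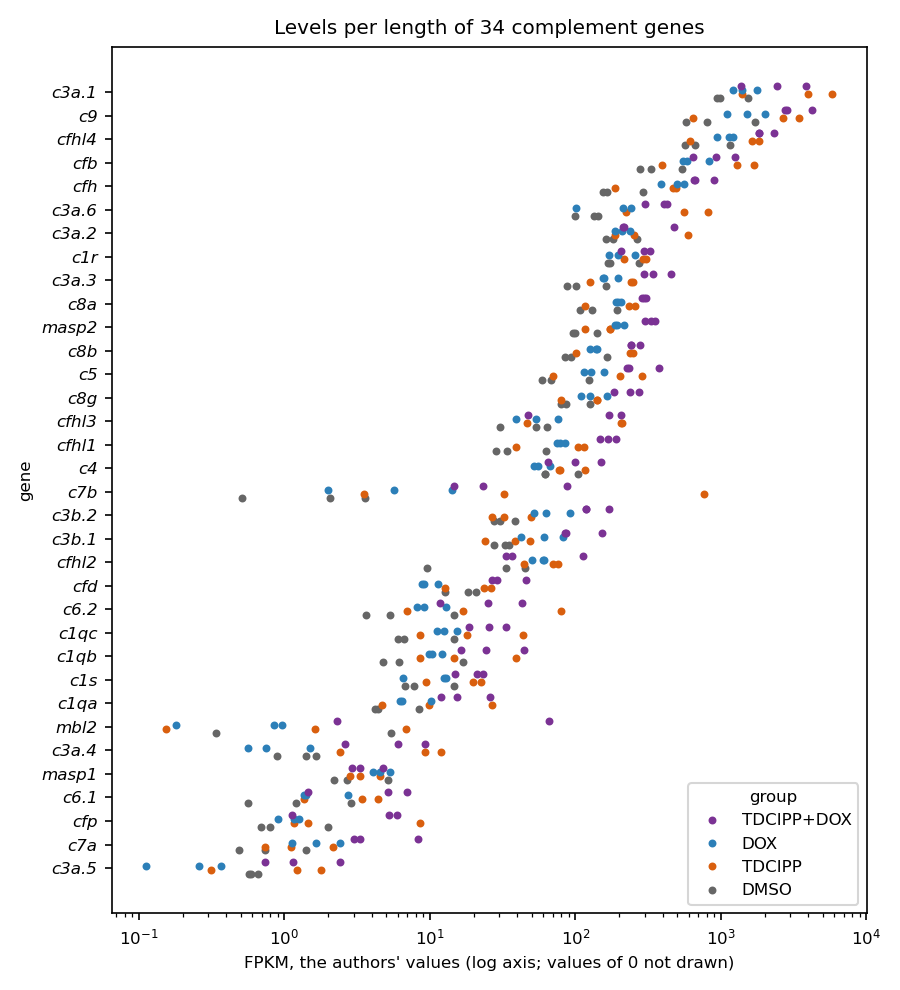
FPKM of the 34 complement genes (log axis), 1 point per library, genes ordered by their mean over 12 libraries and coloured by group. Means over the 12 libraries run between 0.85 FPKM (c3a.5) and 2225 FPKM (c3a.1), and single libraries between 0.113 FPKM (c3a.5, DOX replicate 2) and 5829 FPKM (c3a.1, TDCIPP replicate 1); FPKM is scaled to library totals, so group differences here follow that scaling and not TMM. The 2 libraries with no mbl2 reads are not drawn.

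With TMM scaling and edgeR's quasi-likelihood test over 19160 genes, the 1 complement gene that passed an adjusted p of 0.05 in any of the 6 comparisons was complement factor D, cfd. It was lower in DOX than in DMSO and higher in TDCIPP+DOX than in DOX. No member passed in the other 4 comparisons.

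In TDCIPP against DMSO, 28 of 34 members had a fold change above 0, with a median log2 fold change of 0.51 beside 0.02 over all genes tested. None passed the adjusted threshold in edgeR, where 0.0104% of all genes were called higher and 0.0313% lower. Before adjustment, 6 members had p under 0.05 in the higher direction (6% of all genes) and 0 in the lower one (4.02%). DESeq2 called 3 members higher, c3a.4, c3a.6 and c7b, where it called 1.34% of all genes, and 0 lower (0.93%). For DESeq2, here and below, all genes are those to which it gave an adjusted p (18494 in this comparison). The TDCIPP and DMSO libraries did not overlap for 2 members that were higher (10.4% of all genes) and 0 that were lower (8.95%).

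In TDCIPP+DOX against DMSO, 29 of 34 had a fold change above 0 (median log2 fold change 0.52, all genes 0.10) and again none passed, while 5.33% of all genes were called higher and 6.37% lower. Before adjustment, p was under 0.05 for 5 members that were higher (14.1% of all genes) and 2 that were lower (12.9%). DESeq2 called 1 member, c3b.2, higher (8.76% of all genes) and 0 lower (10.1%). The libraries of both groups did not overlap for 9 members that were higher in TDCIPP+DOX (21.2% of all genes) and for 1 that was lower (18% of all genes). The median was 0.70 without the 4 libraries (28 of 34 above 0), 0.32 without DMSO replicate 2 and 0.33 without TDCIPP+DOX replicate 2.

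In TDCIPP+DOX against DOX, 32 of 34 lay above 0, with a median log2 fold change of 0.67 beside -0.08 for all genes. The median was 0.64 without the 4 libraries, with 29 of 34 above 0. The 8 neutrophil markers summed to 30.8 to 151 CPM in TDCIPP+DOX and 11.1 to 14.1 CPM in DOX. They summed to 65.6 to 149 CPM in TDCIPP and 23.3 to 34.5 CPM in DMSO. Of the 7 that could be tested 1, ncf1, was called higher in TDCIPP+DOX than in DOX (0.71% of all genes). Against DMSO, 1 of the 7 was called higher in TDCIPP+DOX (5.33%) and 0 in TDCIPP (0.0104%). In TDCIPP against DMSO all 7 lay above 0, and for 4 of them the libraries did not overlap (10.4% of all genes). None of the 8 was at 0 in a TDCIPP+DOX or TDCIPP library, while up to 2 of them (among lyz, mmp13a and cxcr1) were at 0 in DOX and DMSO libraries. The part of neutrophil RNA in the complement levels was not tested. The 1 member called higher, cfd, compares with 0.71% of all genes, and 0 members were called lower (1.39% of all genes). All 3 TDCIPP+DOX libraries lay above all 3 DOX libraries for 11 of 34 members, against 13.5% of all genes, and 0 lay the other way (13.6%). Before adjustment, p was under 0.05 for 4 higher members (10.4% of all genes) and 0 lower ones (14%). DESeq2 called 3 members higher, c3a.4, c3a.5 and cfd (5.66% of all genes), and 0 lower (7.41%).

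In DOX against DMSO, 10 of 34 members lay above 0 and the median log2 fold change was -0.20, beside 0.12 for all genes. With the libraries scaled to their totals instead of by TMM the sign turned, to 28 of 34 above 0. The median was then 0.46, still below the 0.83 of all genes. The sign also turned without the 4 libraries that stand apart, with 22 of 34 above 0 and a median of 0.08. The 1 member called lower, cfd, compares with 2.93% of all genes, and 0 were called higher (3.93% of all genes). For 6 members every DOX library lay below every DMSO library (12.3% of all genes), namely c1r, c4, cfd, c3a.1, c3a.2 and c3a.5, and for 0 it lay above (13.7%). Before adjustment, p was under 0.05 for 4 lower members (10.4% of all genes) and 0 higher ones (16.3%). DESeq2 called 4 members lower, c1r, c3a.5, c4 and cfd (7.29% of all genes), and 0 higher (9.01%).

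In TDCIPP+DOX against TDCIPP, 10 of 34 lay above 0 (median log2 fold change -0.25, all genes -0.01) and none was called (2.03% of all genes higher, 2.16% lower). With library totals the median was 0.37 beside 0.64 for all genes, so its sign turned but it stayed below that of all genes. It was 0.02 without the 4 libraries, 0.03 without TDCIPP replicate 1 and -0.01 without TDCIPP replicate 3. Without TDCIPP+DOX replicate 3 it was -0.04, so the shift rests on single libraries. DESeq2 called 1 member, c3b.2, higher (4.57% of all genes) and 0 lower (4.49%). Before adjustment, p was under 0.05 for 3 higher members (9.36% of all genes) and 3 lower ones (8.59%), and the groups did not overlap for 3 higher members (14.7%) and 1 lower one (15.4%). In the interaction, which asks whether TDCIPP acts differently with DOX than without it, no member passed (0.0157% of all genes higher, 0.0104% lower) and the median was 0.09, beside -0.13 for all genes. That median turned to -0.16 without TDCIPP replicate 2, -0.12 without DMSO replicate 1 and -0.04 without DOX replicate 3, and was 0.35 without TDCIPP replicate 1 and 0.22 without the 4 libraries. In the interaction 1 member, cfd, had an unadjusted p under 0.05 (higher; 5.51% of all genes), 0 lay lower (7.32%), and DESeq2 called 0 members (1.09% of all genes higher, 0.518% lower). With library totals the median over all genes shifted to 0.39 for TDCIPP against DMSO, 0.83 for DOX against DMSO and 1.11 for TDCIPP+DOX against DMSO (log2), so changes are read relative to these shifts. The authors' deposited table lists an adjusted p-value for all 34 members in its 4 comparisons and has 0 under 0.05 in each. The share of all genes under 0.05 there was not counted, so this says nothing particular to complement genes.

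**Figure D2:**
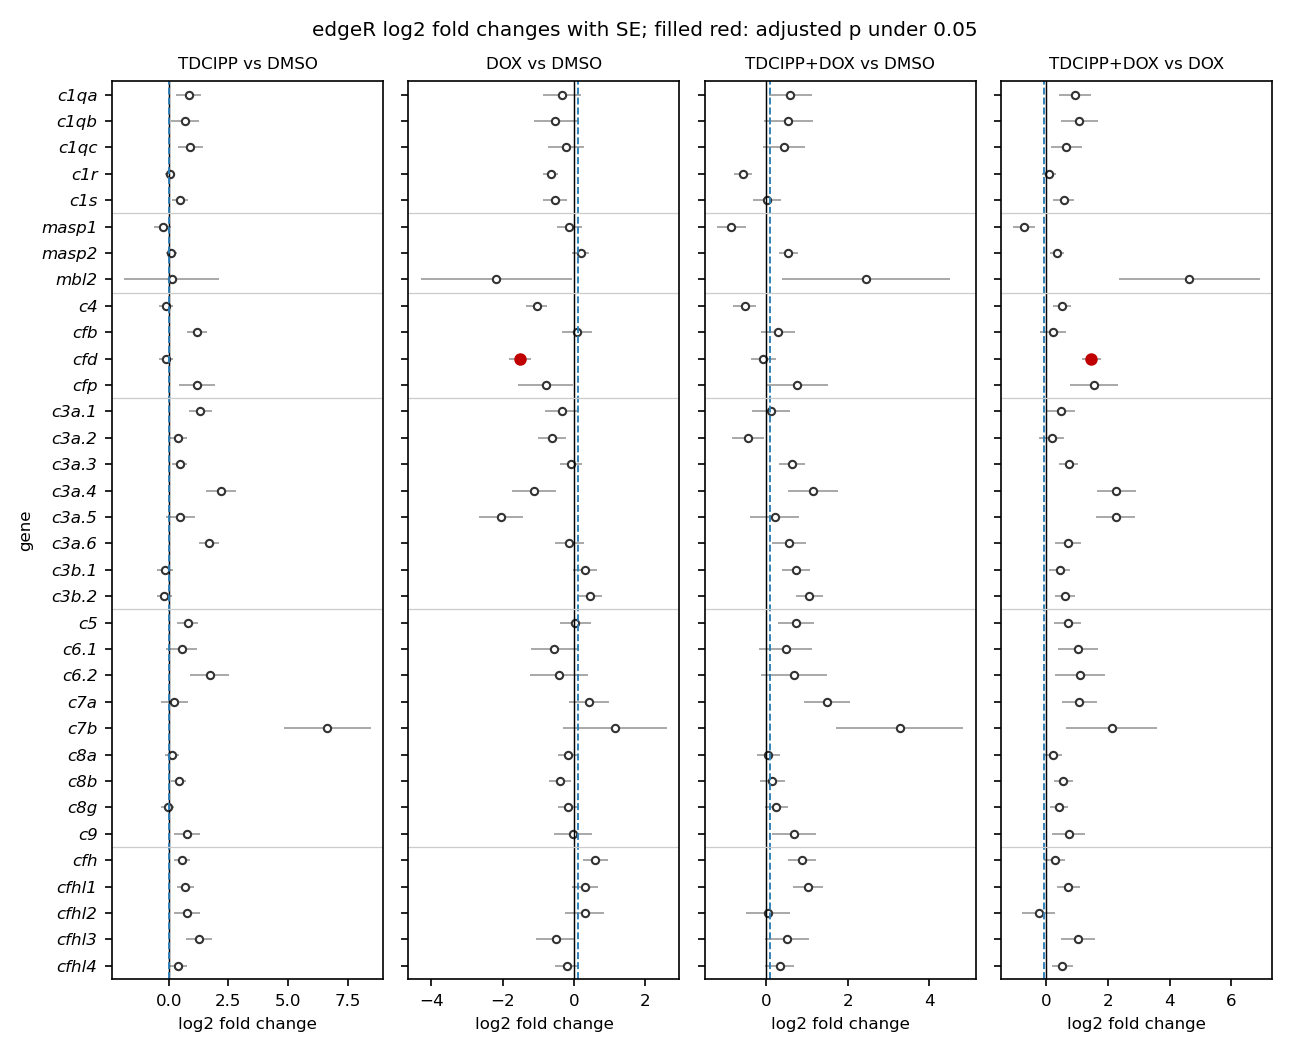
Log2 fold changes (points) with their SE (bars) of the 34 complement genes, by role, in 4 comparisons, each on its own horizontal scale; the dashed line is the median of all 19160 genes tested. Filled red points passed an adjusted p of 0.05 in edgeR: cfd in DOX against DMSO and in TDCIPP+DOX against DOX.

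The TDCIPP libraries spread widely in complement genes. The median fold between the highest and lowest of the 3 libraries was 2.73 over the members in TDCIPP, against 1.51 over all genes. It was 1.74 in TDCIPP+DOX (all genes 1.40), 1.61 in DOX (1.74) and 1.74 in DMSO (1.53). TDCIPP replicate 1 was the highest of all 12 libraries for 13 members, replicate 3 for 6 and replicate 2 for 0. How often these libraries were highest over all genes was not counted. TDCIPP replicate 1 exceeded all DMSO libraries for 21 of 34 members (61.8%, all genes 30.5%), replicate 3 for 23 (67.6%, all genes 29.2%) and replicate 2 for 2 (5.88%, all genes 27.1%). All 3 TDCIPP libraries exceeded all DMSO libraries for c3a.4 and c3a.6, which is 5.88% of members against 10.4% of all genes. Replicates 1 and 3 without replicate 2 did so for 15 members (44.1%, against 5.66% of all genes). This pattern was picked after the values were seen, and all members were read in the same 3 libraries. The median log2 fold change over DMSO was 0.28 without TDCIPP replicate 1, 0.32 without replicate 3 and 0.83 without replicate 2. Without the 4 libraries that stand apart, TDCIPP replicate 1 among them, it was 0.25, with 24 of 34 members above 0.

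**Figure D3:**
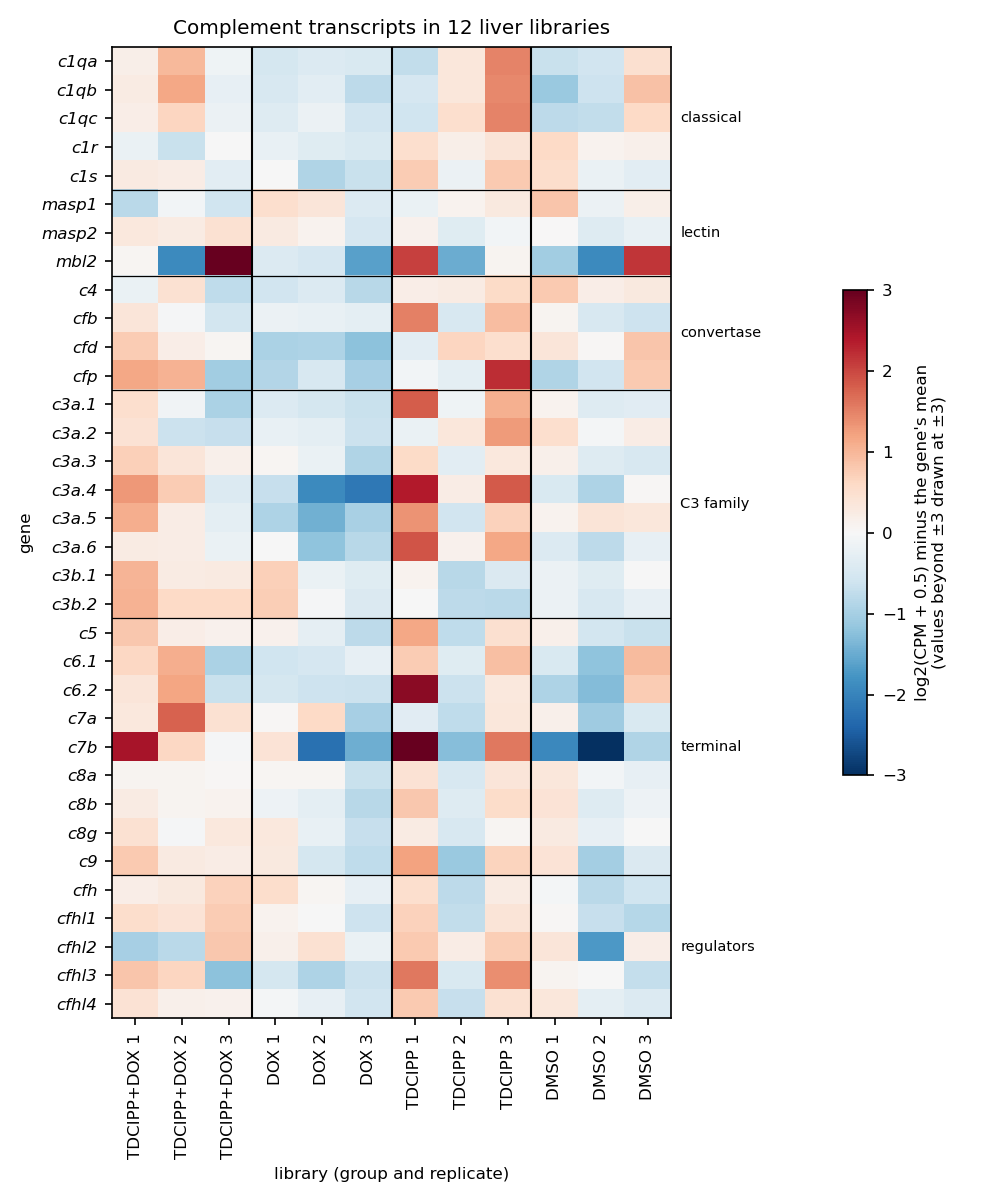
Heat map of the 34 complement genes (rows, by role) in the 12 libraries (columns), as log2(CPM + 0.5) minus the gene's mean over the libraries. TDCIPP replicates 1 and 3 are red across most c3a genes, cfb, c9 and most regulators while TDCIPP replicate 2 is pale or blue, and the DOX libraries are blue for cfd, c3a.4 and c3a.5.

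C3 is the protein on which all routes converge, and 8 genes encode it here: 6 c3a genes within bases 55997173 to 56320569 of chromosome 1 and 2 c3b genes within 26129250 to 26236275 of chromosome 22 (genome build not given in the sources used). Reads of such near copies may have been split between them by the counting. The major gene, c3a.1, had 13447, 8782 and 4942 CPM in TDCIPP+DOX, 7139, 6547 and 5951 CPM in DOX, 33573, 8667 and 19958 CPM in TDCIPP, and 10191, 7245 and 7493 CPM in DMSO. TDCIPP replicates 1 and 3 were the highest of all libraries and replicate 2 lay within the DMSO range. Its log2 fold change in TDCIPP against DMSO was 1.32 ± 0.47 (SE) and did not pass (edgeR, adjusted p = 0.362). Without the 4 libraries that stand apart it was 0.73 ± 0.42 (adjusted p = 0.464). In TDCIPP+DOX it lay 0.12 ± 0.46 from DMSO on the same scale (edgeR, adjusted p = 0.905).

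A second liver copy, c3a.6, singled out after its values were seen, had 894, 887 and 656 CPM in TDCIPP+DOX, 754, 328 and 427 CPM in DOX, 2817, 831 and 1688 CPM in TDCIPP and 570, 440 and 636 CPM in DMSO. Here all 3 TDCIPP libraries lay above DMSO, with a log2 fold change of 1.70 ± 0.43 that edgeR did not call (adjusted p = 0.224) and DESeq2 did (1.66 ± 0.44, adjusted p = 0.0134). Without the 4 libraries that stand apart, c3a.6 kept a fold change of 1.33 ± 0.45 (edgeR, adjusted p = 0.251). The minor copy c3a.4 behaved likewise, at 67.1, 14.5 and 45.8 CPM in TDCIPP against 8.98, 6.35 and 12.7 CPM in DMSO. Its log2 fold change was 2.18 ± 0.63 (edgeR, adjusted p = 0.275; DESeq2, 0.0294), and 1.99 ± 0.59 without the 4 libraries (edgeR, adjusted p = 0.214). In TDCIPP+DOX, c3a.4 had 31.4, 21.3 and 9.22 CPM, against 7.49, 2.96 and 2.41 CPM in DOX. The groups did not overlap, and the log2 fold change of 2.27 ± 0.63 was called by DESeq2 (adjusted p = 0.00561) and not by edgeR (adjusted p = 0.0804; without the 4 libraries 2.35 ± 0.60, adjusted p = 0.101). The lowest copy, c3a.5, had 201, 114 and 59 reads in TDCIPP+DOX, against 22, 8 and 27 reads in DOX, so its values rest on few reads.

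The c3b genes did not follow c3a.1, c3a.4, c3a.5 and c3a.6, which were highest in TDCIPP replicate 1. Both c3b.1 and c3b.2 were highest in TDCIPP+DOX replicate 1, but so was c3a.3. The copy c3a.2 differed again, at 1106, 1598 and 3041 CPM in TDCIPP, with replicate 1 the lowest of that group. The c3a genes therefore did not share a single pattern. For c3b.2, also singled out after its values were seen, there were 668, 489 and 486 CPM in TDCIPP+DOX, 537, 314 and 238 CPM in DOX, 321, 186 and 185 CPM in TDCIPP and 286, 231 and 272 CPM in DMSO. All TDCIPP+DOX libraries lay above all TDCIPP and all DMSO libraries. The log2 fold change was 1.25 ± 0.32 over TDCIPP (edgeR, adjusted p = 0.0551; DESeq2, 0.00821) and 1.06 ± 0.32 over DMSO (edgeR, adjusted p = 0.0553; DESeq2, 0.026). Without the 4 libraries edgeR called both, at 1.66 ± 0.30 over TDCIPP (adjusted p = 0.0296) and 1.2 ± 0.30 over DMSO (adjusted p = 0.0397). In TDCIPP alone c3b.2 lay at -0.19 ± 0.32 from DMSO (edgeR, adjusted p = 0.868). The ratio of summed c3b to summed c3a FPKM needs no scaling between libraries. It was 0.0614, 0.0602 and 0.0942 in TDCIPP+DOX, 0.0859, 0.0565 and 0.0517 in DOX, 0.0138, 0.0251 and 0.0132 in TDCIPP and 0.0347, 0.041 and 0.0466 in DMSO. Every library with DOX lay above every DMSO library, and every TDCIPP library lay below. With c3a.1 left out of the sum the ratio kept this order of groups, at 0.210 to 0.252 in TDCIPP+DOX, 0.204 to 0.270 in DOX, 0.0507 to 0.0831 in TDCIPP and 0.128 to 0.155 in DMSO. The ratio was formed after the values were seen and is given without a test.

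**Figure D4:**
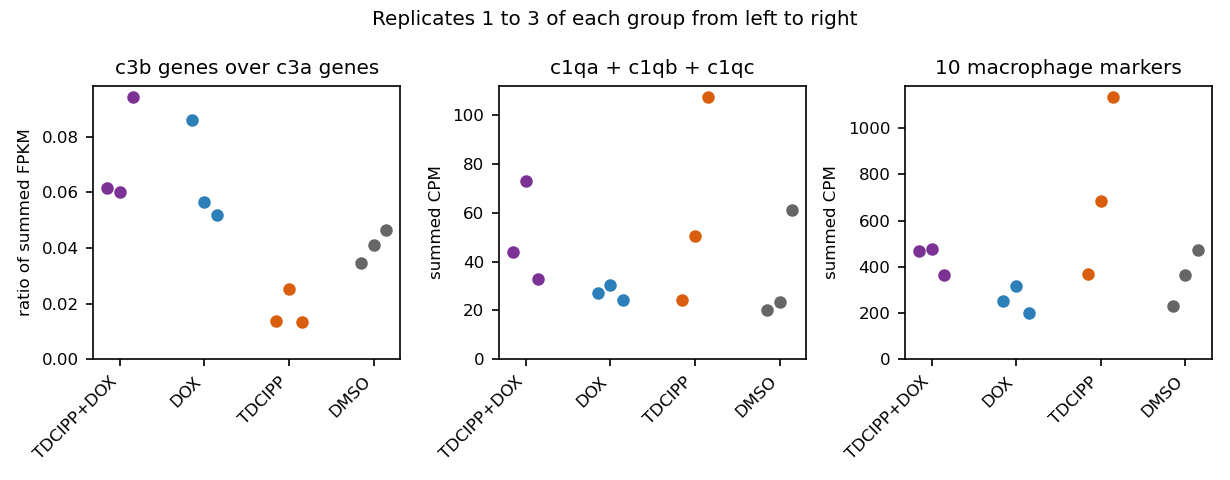
Left, the ratio of summed c3b to summed c3a FPKM per library; middle, the summed CPM of the 3 C1q chains; right, the summed CPM of 10 macrophage markers, replicates 1 to 3 of each group from left to right. The ratio spans 0.0517 to 0.0942 over the 6 libraries with DOX, against 0.0132 to 0.0251 for TDCIPP libraries and 0.0347 to 0.0466 for DMSO libraries.

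Factor B and factor D build the alternative pathway convertase: factor D is the serine protease that cleaves factor B once it is bound to C3b. For cfd (chromosome 13, 13681681 to 13684334, plus strand) there were 28.2, 18.8 and 17.2 CPM in TDCIPP+DOX, 8.31, 8.43 and 6.74 CPM in DOX, 13, 25.7 and 23.6 CPM in TDCIPP, and 21.3, 16.7 and 29.4 CPM in DMSO. All 3 DOX libraries lay below the 9 others. cfd fell in DOX relative to DMSO by 1.52 ± 0.31 in log2 terms (edgeR, adjusted p = 0.0222; DESeq2, 0.000315) and was higher in TDCIPP+DOX than in DOX by 1.45 ± 0.31 (edgeR, adjusted p = 0.0451; DESeq2, 0.00141). The interaction was 1.56 ± 0.43 and did not pass (edgeR, adjusted p = 0.301), and TDCIPP+DOX lay -0.07 ± 0.30 from DMSO (edgeR, adjusted p = 0.918).

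Both cfd calls were lost under some settings. The fall in DOX was -1.16 ± 0.25 without the 4 libraries that stand apart and still passed (edgeR, adjusted p = 0.0485). It did not pass with library totals (-0.82 ± 0.32, adjusted p = 0.0747), in a fit on the DOX and DMSO libraries alone (adjusted p = 0.0611), without DMSO replicate 1 (0.0595) or without DMSO replicate 3 (0.0825). The call for cfd in TDCIPP+DOX against DOX was lost without the 4 libraries, where the fold change was 1.51 ± 0.25 (edgeR, adjusted p = 0.0597). It was also lost with any 1 library left out other than DMSO replicate 2 or TDCIPP replicate 1 (adjusted p between 0.0544 and 0.136). The fold changes with 1 library left out lay between 1.2 and 1.59. Some of these fits called few genes at all: over all genes tested, 136 were higher in the main fit. That number was 0 without any 1 of the TDCIPP+DOX libraries, 1 without DOX replicate 2 and 3 without TDCIPP replicate 2. It was 165 without DOX replicate 1 and 127 without DOX replicate 3. In mammals factor D is made mainly by fat cells. Of 6 adipocyte markers, listed after the data were seen, the adiponectin gene adipoqa had 0 reads in all 12 libraries and adipoqb at most 0.09 CPM. The summed level of the list was 15.6 to 21.1 CPM in TDCIPP+DOX, 14.6 to 20.5 CPM in DOX, 20.4 to 33.7 CPM in TDCIPP and 24.5 to 38.7 CPM in DMSO. Of the 4 that could be tested, 1 was called lower in DOX than in DMSO (2.93% of all genes) and 0 higher (3.93%). In TDCIPP+DOX, 1 was called lower than in DMSO (6.37%) and 0 were called against DOX (0.71% higher, 1.39% lower). The part of fat cell RNA in the cfd level was not tested.

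Factor B, cfb, had 2097, 1602 and 1107 CPM in TDCIPP+DOX, 1448, 1403 and 1334 CPM in DOX, 4627, 1161 and 3118 CPM in TDCIPP and 1716, 1162 and 1059 CPM in DMSO. As for c3a.1, TDCIPP replicates 1 and 3 were highest and replicate 2 lay at the DMSO level. The log2 fold change in TDCIPP against DMSO was 1.18 ± 0.43 (edgeR, adjusted p = 0.367), and 0.59 ± 0.44 for cfb without the 4 libraries (adjusted p = 0.565). Per length, cfd stood at 3.16% to 4.20% of cfb in TDCIPP+DOX, 1.36% to 1.62% in DOX, 0.759% to 5.97% in TDCIPP and 3.35% to 7.48% in DMSO.

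C4 supplies the classical and lectin convertase. Its gene c4 had 295, 460 and 199 CPM in TDCIPP+DOX, 226, 253 and 189 CPM in DOX, 383, 401 and 500 CPM in TDCIPP and 579, 388 and 414 CPM in DMSO. Every DOX library lay below every TDCIPP and DMSO library. The log2 fold change in DOX against DMSO was -1.05 ± 0.30, which DESeq2 called (adjusted p = 0.00928) and edgeR did not (adjusted p = 0.0562); with library totals it was -0.39 ± 0.31 for c4 (adjusted p = 0.363), and without the 4 libraries -0.99 ± 0.30 (adjusted p = 0.11). The reference table gives the name c4b to another row, si:dkey-8k3.2, which was left out of all counts of members. It had 1345, 1150 and 482 CPM in TDCIPP+DOX, 760, 638 and 581 CPM in DOX, 2322, 811 and 1667 CPM in TDCIPP and 751, 663 and 651 CPM in DMSO. That pattern, with TDCIPP replicates 1 and 3 highest, was that of c3a.1 and cfb rather than that of c4. It was 1 of 5 genes read as paralogs of members, of which 3 lay above 0 in TDCIPP+DOX against DMSO and 2 below. None was called there (5.33% of all genes higher, 6.37% lower). The groups did not overlap for 1 lower gene, bfb (18% of all genes), and 0 higher ones (21.2%). bfb had 136, 132 and 30.3 CPM in TDCIPP+DOX, against 290, 230 and 221 CPM in DMSO. Properdin, cfp, which stabilizes the alternative convertase, had between 4.14 and 44.0 CPM and passed no test.

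**Figure D5:**
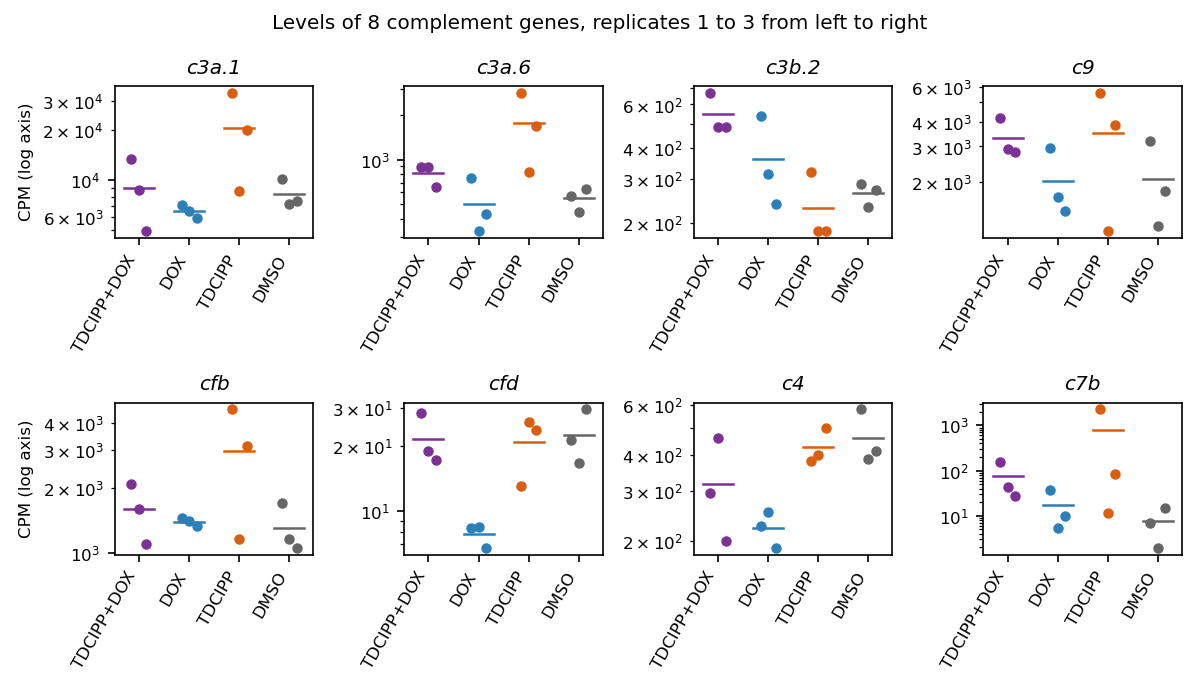
CPM (log axis) of 8 complement genes in each library, with replicates 1 to 3 of a group from left to right and the group mean as a line. The DOX libraries are the lowest for cfd (6.74 to 8.43 CPM), and TDCIPP replicates 1 and 3 are the highest for c3a.1, c3a.6 and cfb.

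In the classical pathway, the C1q chains are macrophage products while the proteases C1r and C1s come largely from hepatocytes. The protease gene c1r had 386, 281 and 445 CPM in TDCIPP+DOX, 379, 345 and 325 CPM in DOX, 630, 504 and 581 CPM in TDCIPP and 675, 476 and 498 CPM in DMSO. All 6 libraries with DOX lay below the 6 without it. The log2 fold change was -0.65 ± 0.22 in DOX against DMSO (edgeR, adjusted p = 0.0957; DESeq2, 0.0323), -0.57 ± 0.22 in TDCIPP+DOX against DMSO (edgeR, adjusted p = 0.118) and -0.63 ± 0.22 in TDCIPP+DOX against TDCIPP (edgeR, adjusted p = 0.15). With library totals the first of these was 0.03 ± 0.26 for c1r (adjusted p = 0.937). In the fit without the 4 libraries the 3 were -0.65 ± 0.26, -0.75 ± 0.26 and -0.68 ± 0.26 (edgeR, adjusted p = 0.193, 0.1 and 0.198). Its neighbour c1s ranged between 26.0 and 84.1 CPM with overlap in every comparison.

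The 3 C1q chain genes lie side by side on chromosome 21 (22712307 to 22724980). Their summed level was 43.9, 73.2 and 32.9 CPM in TDCIPP+DOX, 27.2, 30.4 and 24.4 CPM in DOX, 24.4, 50.5 and 108 CPM in TDCIPP, and 20.3, 23.5 and 60.9 CPM in DMSO. All TDCIPP+DOX libraries lay above all DOX libraries for c1qa, c1qb and c1qc, with log2 fold changes of 0.92 ± 0.53, 1.06 ± 0.60 and 0.65 ± 0.51 that did not pass (edgeR, adjusted p = 0.294, 0.292 and 0.445). In the fit without the 4 libraries they were 1.17 ± 0.40, 1.24 ± 0.43 and 0.76 ± 0.33 (edgeR, adjusted p = 0.152, 0.156 and 0.228). The chains kept close to each other: per length, c1qb stood at 1.09 to 2 times c1qa and c1qc at 1.29 to 1.94 times c1qa over the 12 libraries. The 10 macrophage markers, none of them at 0 in any library, summed to 364 to 477 CPM in TDCIPP+DOX, 199 to 317 CPM in DOX, 370 to 1136 CPM in TDCIPP and 228 to 474 CPM in DMSO. In TDCIPP+DOX against DOX, 1 of the 10 markers, grna, passed higher (0.71% of all genes) and 0 lower (1.39%). All 10 lay above 0 in that comparison (median log2 fold change 1.56, all genes -0.08). The libraries did not overlap for 7 higher markers (13.5% of all genes). Before adjustment, p was under 0.05 for 7 higher markers (edgeR, 10.4% of all genes). In TDCIPP+DOX against DMSO 8 of the 10 lay above 0 and 1, grna, passed higher (5.33% of all genes). In TDCIPP against DMSO all 10 lay above 0 (median log2 fold change 1.48, all genes 0.02) and 0 passed. Before adjustment, 7 of them had p under 0.05 there (edgeR, 6% of all genes higher). For c1qa, c1qb and c1qc that fold change was 0.79 ± 0.55, 0.64 ± 0.61 and 0.86 ± 0.54 (DESeq2, adjusted p = 0.613, 0.745 and 0.551). TDCIPP replicate 3 was the highest library for C1q and for the markers alike. In TDCIPP replicate 1 they parted: C1q, at 24.4 CPM, was no higher than in any DOX library. The markers summed to 370 CPM there, above all DOX libraries. The part of macrophage numbers in the C1q levels was not tested. Against DMSO, TDCIPP+DOX lay at 0.54 ± 0.60 for c1qb and 0.43 ± 0.51 for c1qc (edgeR, adjusted p = 0.617 and 0.648). Leaving out the 4 libraries removes DMSO replicate 3, the DMSO library with most C1q, and edgeR then called c1qb (1.73 ± 0.44, adjusted p = 0.0407) and c1qc (1.29 ± 0.33, adjusted p = 0.0438) higher in TDCIPP+DOX than in DMSO.

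The lectin pathway protease gene masp2 had 330, 315 and 363 CPM in TDCIPP+DOX, 320, 285 and 185 CPM in DOX, 287, 204 and 251 CPM in TDCIPP and 265, 202 and 226 CPM in DMSO. TDCIPP+DOX lay above TDCIPP and DMSO in all libraries, with log2 fold changes of 0.44 ± 0.23 and 0.54 ± 0.23 (edgeR, adjusted p = 0.351 and 0.155), and 0.52 ± 0.22 and 0.50 ± 0.22 without the 4 libraries (adjusted p = 0.249 and 0.179). The related protease gene masp1 averaged 3.81 FPKM, against 199 FPKM for masp2, and had 3.59 to 12.1 CPM. The mannose-binding lectin gene mbl2 had 43.8 CPM in TDCIPP+DOX replicate 3, 7.89 CPM in DMSO replicate 3, 7.29 CPM in TDCIPP replicate 1 and 1.51 CPM or less in the 9 other libraries, of which 2 had 0 reads (a count of 0 allows up to 3 reads by counting error alone). The 3 libraries with most mbl2 were the 3 with most intestine marker RNA, and the part of that RNA in the mbl2 level was not tested.

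Among the terminal genes, which form the membrane attack complex, c9, whose product makes up most of the pore, had 4178, 2916 and 2830 CPM in TDCIPP+DOX, 2941, 1670 and 1428 CPM in DOX, 5576, 1124 and 3828 CPM in TDCIPP and 3192, 1189 and 1793 CPM in DMSO. TDCIPP replicate 2 was the lowest library of all and replicate 1 the highest. Against DMSO, the log2 fold change of c9 was 0.68 ± 0.54 for TDCIPP+DOX, -0.03 ± 0.53 for DOX and 0.77 ± 0.54 for TDCIPP (edgeR, adjusted p = 0.459, 0.977 and 0.664). The first of these was 0.73 ± 0.64 for c9 without the 4 libraries (adjusted p = 0.491) and the last 0.19 ± 0.63 (adjusted p = 0.914). All 9 terminal genes had a fold change above 0 in TDCIPP+DOX against DMSO (median 0.68) and against DOX (median 0.72), and none passed. The 3 genes of C8, whose product has an alpha, a beta and a gamma chain, stood near each other per length, with c8a at 0.942 to 1.57 times and c8g at 0.567 to 1.17 times c8b over the 12 libraries. c8a lies wholly within the span of c8b on the opposite strand, and whether the counting used strand is not stated.

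For c7b, which encodes C7, the subunit that lets the growing complex enter the membrane, the libraries spread widely. It was singled out after its values were seen and had 157, 43.4 and 27.1 CPM in TDCIPP+DOX, 37.4, 5.47 and 9.72 CPM in DOX, 2264, 11.2 and 83.8 CPM in TDCIPP and 6.94, 1.94 and 14.6 CPM in DMSO. A single library, TDCIPP replicate 1, carried 73861 reads of it. The log2 fold change in TDCIPP against DMSO was 6.65 ± 1.82 (edgeR, adjusted p = 0.249; DESeq2, 0.00138), and the groups overlapped. Without TDCIPP replicate 1 the c7b fold change was 2.60 ± 1.12 (edgeR, adjusted p = 0.584). All TDCIPP+DOX libraries lay above all DMSO libraries (3.27 ± 1.56, edgeR, adjusted p = 0.204). In the fit without the 4 libraries c7b lay 4.52 ± 1.31 above DMSO in TDCIPP+DOX and 3.42 ± 1.25 above it in TDCIPP (edgeR, adjusted p = 0.0599 and 0.28). The end of c7b overlaps c6.2 by 404 bases on the opposite strand, and c6.2 was also highest in TDCIPP replicate 1, at 148 CPM against 50.7 CPM or less in the other libraries, so reads of the 2 genes may not be fully separated. The other copy, c7a, had 2.18 to 18.4 CPM.

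Factor H holds the alternative pathway in check on host surfaces, and what its relatives cfhl1 to cfhl4 do was not tested here. The 5 genes lie together on chromosome 22 (23598036 to 23781213), and counts of such close copies are uncertain. The span of cfhl4 shares 14762 of its 27337 bases with cfhl5 on the same strand, so reads of these 2 genes may not be separated. The leading gene, cfhl4, had 1795, 1479 and 1456 CPM in TDCIPP+DOX, 1290, 1118 and 898 CPM in DOX, 2320, 834 and 1829 CPM in TDCIPP and 1690, 1082 and 1001 CPM in DMSO. TDCIPP+DOX lay above DOX in every library, with a log2 fold change of 0.52 ± 0.35 (edgeR, adjusted p = 0.369; without the 4 libraries 0.46 ± 0.39, adjusted p = 0.524). For cfh and cfhl1 the TDCIPP+DOX libraries lay above all DMSO libraries, by 0.87 ± 0.35 and 1.02 ± 0.36 (edgeR, adjusted p = 0.129 and 0.0931), and by 0.67 ± 0.38 and 0.79 ± 0.38 without the 4 libraries (adjusted p = 0.291 and 0.209). cfh had 1012, 1075 and 1437 CPM in TDCIPP+DOX and 843, 507 and 581 CPM in DMSO. Per length, cfhl4 stood at 2.02 to 3.53 times cfh in TDCIPP+DOX, 2.03 to 2.41 times in DOX, 3.24 to 3.68 times in TDCIPP and 3.43 to 4.25 times in DMSO.

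Other complement genes, such as receptors, membrane regulators and pentraxins, were read from a list of 32 names, of which 22 could be tested. In TDCIPP+DOX, 1 of 22 was lower than in DMSO (6.37% of all genes) and than in DOX (1.39%) and none was higher (5.33% and 0.71%), and no gene passed in the comparisons of TDCIPP or DOX with DMSO. The gene called was c1qbp, whose product binds C1q heads but sits mainly in mitochondria. It had 27.7, 28.6 and 32.8 CPM in TDCIPP+DOX, 57.1, 85.9 and 55.2 CPM in DOX, 46.6, 50.7 and 59.4 CPM in TDCIPP and 55.4, 91.0 and 51.9 CPM in DMSO. It fell in TDCIPP+DOX relative to DMSO by 1.15 ± 0.26 (edgeR, adjusted p = 0.0152), with all 3 libraries below every other library. Its fold change there was -1.34 ± 0.30 without the 4 libraries (adjusted p = 0.0278) and -0.13 ± 0.27 with library totals, where the call was lost (adjusted p = 0.694). The pentraxin genes crp3 and crp5, kin to C-reactive protein, did not pass. crp5 had 1340, 2186 and 1047 CPM in TDCIPP+DOX, 2391, 319 and 569 CPM in DOX, 336, 13.7 and 576 CPM in TDCIPP and 211, 26.7 and 14.2 CPM in DMSO, a log2 fold change of 4.18 ± 1.35 in TDCIPP+DOX against DMSO (edgeR, adjusted p = 0.0693; without the 4 libraries 3.92 ± 1.67, adjusted p = 0.163; with library totals 5.09 ± 1.44, adjusted p = 0.0182).

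Of 19 genes for inducers of complement transcription and for liver transcription factors, 17 could be tested. In TDCIPP+DOX against DOX, 3 were higher (0.71% of all genes) and 0 lower (1.39%); 1 was higher in TDCIPP+DOX against DMSO (5.33%) and 1 in TDCIPP+DOX against TDCIPP (2.03%), 1 was lower in DOX against DMSO (2.93%), and 0 passed in TDCIPP against DMSO. cebpa, which encodes a C/EBP factor of mature hepatocytes, had 79.4, 129 and 101 CPM in TDCIPP+DOX, 82.3, 159 and 101 CPM in DOX, 30.0, 29.0 and 30.7 CPM in TDCIPP and 70.4, 89.5 and 53.8 CPM in DMSO. All 3 TDCIPP libraries were below the 9 others, TDCIPP replicate 2 included, and cebpa was higher in TDCIPP+DOX than in TDCIPP (log2 fold change 1.78 ± 0.29, edgeR, adjusted p = 0.00967; without the 4 libraries 1.82 ± 0.36, adjusted p = 0.0347). The bile acid receptor gene nr1h4 (FXR) had 17.5, 9.78 and 7.31 CPM in DOX, against 35.2, 36.0 and 42.2 CPM in DMSO, and fell by 1.71 ± 0.30 (edgeR, adjusted p = 0.0137; without the 4 libraries -1.36 ± 0.29, adjusted p = 0.0444). The interferon pathway genes stat1a and irf1b were higher in TDCIPP+DOX than in DOX. stat1a had 53.9, 54.6 and 63.2 CPM in TDCIPP+DOX, against 33.4, 27.8 and 20.0 CPM in DOX (log2 fold change 1.08 ± 0.23, edgeR, adjusted p = 0.0451). irf1b had 12.5, 12.2 and 35.4 CPM in TDCIPP+DOX, against 3.01, 3.36 and 2.21 CPM in DOX (2.81 ± 0.62, edgeR, adjusted p = 0.0466). Both calls were lost without the 4 libraries, at 0.85 ± 0.21 for stat1a and 1.97 ± 0.64 for irf1b (adjusted p = 0.0948 and 0.139), and that of irf1b also with library totals (3.16 ± 0.65, adjusted p = 0.0538).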

How the data were processed

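Liver RNA of 12 libraries was analysed, 3 for each of 4 groups taken from the treatment labels. Per the labels' protocols, Trizol RNA went into NEBNext Ultra libraries. Raw read counts per gene, not normalized, and the authors' FPKM come from one deposited table; for all 28600 genes with an FPKM above 0, FPKM divided by count over length and total was constant across libraries (tolerance 0.1%), but the length behind FPKM matched the length column for 14573 of them, and it is not stated. The same deposited table gives the authors' adjusted p-values for 4 comparisons, without naming a tool. HISAT is named in the submitters' processing notes; not given in the sources used here are its version, the counting program and strand setting, the build and the annotation.

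Genes were tested with edgeR 4.0.16 (R 4.3.3), with filterByExpr, TMM scaling and the quasi-likelihood test on all 4 groups (8 residual degrees of freedom, biological coefficient of variation 54.5%), and Benjamini-Hochberg adjustment over all 19160 of 34028 genes that passed the filter. The procedure was tested on simulated data. CPM values use TMM scaling. DESeq2 1.42.0 was an alternative. Its shares of all genes are of those with an adjusted p, 16657 to 18494 depending on the comparison, and not of 19160. The other alternatives were other size factors, library totals, no filter, a fold threshold, fits on fewer libraries and the replicate number as a term. With 3 libraries a group, single-gene permutation tests could not reach 0.05 and were not used. The members and lists were chosen with earlier results of these data known. Members called in any comparison and, in each role, the member with the highest mean CPM are given in every library; of other lists, up to 4 genes with the smallest adjusted p are named. Genes outside this rule were chosen after their values were seen, and alternatives for genes of other lists were chosen after seeing the data. Columns of per-sample values left out numbered 0.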

Additional observations from a re-analysis of the deposited data

How the results depend on the processing

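Counts of members called depended on the scaling and the tool. With library totals in place of TMM, 3 members were higher (c3b.2, cfh, masp2; 25% of all genes) and 0 lower (1.23%) in DOX against DMSO, 19 were higher in TDCIPP+DOX against DMSO (36.3% of all genes) and 5 in TDCIPP+DOX against TDCIPP (c3b.1, c3b.2, c7a, c8g, masp2; 13.2%). Under that scaling cfd turned in TDCIPP+DOX against DMSO, to a log2 fold change of 0.97 (edgeR, adjusted p = 0.0361), against -0.07 with TMM; the scaling itself moves the median of all genes there to 1.11. DESeq2 called 3 higher in TDCIPP against DMSO (1.34% of all genes) and 1 in TDCIPP+DOX against DMSO (8.76%). It called 3 higher in TDCIPP+DOX against DOX (5.66%) and 1 in TDCIPP+DOX against TDCIPP (4.57%). In DOX against DMSO it called 4 lower (7.29%). Fits on only the libraries compared called 3 higher in TDCIPP+DOX against DMSO (c3b.2, c7b and cfhl1, beside 8.19% of all genes). They called 0 higher in TDCIPP+DOX against DOX (0% of all genes) and 0 lower in DOX against DMSO (0.252%). Without a filter, 0 were higher in TDCIPP+DOX against DOX (0.248% of all genes). Without the 4 libraries that stand apart, 5 were higher in TDCIPP+DOX against DMSO (c1qb, c1qc, c3b.2, c6.1, c6.2; 6.27% of all genes), 0 in TDCIPP+DOX against DOX (0.193%) and 1 in TDCIPP+DOX against TDCIPP (2.44%). The cause of these shifts was not tested. Leaving out each library in turn gave 0 to 1 higher in TDCIPP+DOX against DMSO, where 2.19% to 8.44% of all genes were called higher. TDCIPP+DOX also had 0 to 1 higher against DOX (0% to 0.823% of all genes) and against TDCIPP (0.35% to 3.18%). In DOX against DMSO 0 to 2 were lower (0.528% to 2.61% of all genes), and every other count was 0 to 0.

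The replicate numbers were not shown to pair the libraries: deviations of same-numbered libraries from their group means correlated at a median r of 0.01 (-0.23 to 0.18, over 0.1 in 2 of 18 pairs of libraries). With the replicate block, 1 member (c3b.2) was higher in TDCIPP+DOX against DMSO (4.82% of all genes) and against TDCIPP (1.75%). In TDCIPP+DOX against DOX 0 were higher (0.491%), and cfd had an adjusted p of 0.0692 (edgeR). All other counts of members were as without the block.

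With 3 libraries a group and a wide spread between TDCIPP libraries, a p that misses the threshold does not show that levels were alike. Members with few reads, such as c3a.5 and mbl2, have the least certain values.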
